A study of Mus musculus with 12 samples.

Results

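The genes described here are 42 genes of the vascular endothelium and of vessel growth, matched by symbol to 42 of the 38293 Ensembl gene identifiers that both count tables share. The genes were chosen as a list by name, with earlier results of these data known. They comprise 7 vessel growth ligands (Vegfa, Vegfb, Vegfc, Pgf, Angpt1, Angpt2, Apln), 9 receptors (Kdr, Flt1, Flt4, Nrp1, Nrp2, Tek, Tie1, Aplnr, S1pr1), 7 genes of Notch and ephrin signalling (Notch1, Notch4, Dll4, Jag1, Hey1, Efnb2, Ephb4), 7 transcription factors (Erg, Fli1, Sox7, Sox17, Sox18, Klf2, Klf4), 8 junction and surface proteins (Pecam1, Cdh5, Esam, Cldn5, Emcn, Robo4, Ptprb, Plvap) and 4 secreted or enzymatic products (Vwf, Egfl7, Mmrn2, Nos3). Every one of the 42 genes matched exactly 1 row and passed the filter on low counts in both tables, and the smallest count of any of them in any library was 14.

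RNA-seq was made from left ventricular tissue of young adult male C57BL/6J mice. WT sham hearts had surgery without ischaemia, and WT IR hearts were taken 14 days after ischaemia and reperfusion (IR), in which the left anterior descending artery is tied off for a time and then released. In a separate table, Zeb2 WT IR hearts came from wild-type littermates and Zeb2 cTg IR hearts (cTg-labelled below) from mice in which Cre recombinase under the cardiomyocyte promoter of Myh6 removes a stop cassette from a Zeb2 transgene in the Rosa26 locus. Both of these groups also had IR 14 days before. Each group held 3 mice, so there were 12 libraries, and the sources differ on which zone of the injured hearts was sampled (infarct with border zone, or remote zone).

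Endothelial cells line all vessels of the heart, and in the capillaries they lie beside nearly every cardiomyocyte. Vascular endothelial growth factors, made in the heart largely by cardiomyocytes, act through the receptor VEGFR2 (Kdr) to drive sprouting and survival of these cells, angiopoietins act through TIE2 (Tek) to set how tightly vessels are sealed, and DLL4 acting on NOTCH1 restrains sprouting and supports arterial identity through targets such as HEY1. Apelin (Apln) and its receptor (Aplnr) are found on growing vessels and also act on contractility.

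Libraries held between 20215781 and 36816818 counts, of which between 60.6% and 73.5% fell on the mitochondrial genome, leaving between 5706340 and 11618213 counts for all other genes. The 42 genes took between 23039 and 48760 counts per library, or between 0.310% and 0.420% of the counts outside the mitochondrial genome. Levels are given as CPM, counts per 1000000 after TMM scaling, and 1 CPM stood for between 17.2 and 37.8 counts. The 10 cardiomyocyte markers summed to 45449.9 to 68346 CPM, far above any other marker list in every library, and the endothelial genes Pecam1, Cdh5, Kdr, Tek and Ptprb were above 30 CPM in every library. In these bulk samples fewer cells of a type and less RNA per cell cannot be told apart.

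Per kilobase of exon, the 42 genes spanned a wide range of levels in WT sham hearts. Vegfa had the highest level (24.003 CPM per kb), followed by Cdh5 (21.9), Vegfb (19.2), Nrp1 (16.9), Kdr (14.5), Egfl7 (11.1) and Pecam1 (10.5), and Pgf (0.440), Angpt2 (0.530) and Sox17 (0.539) had the lowest. After IR the order at the top changed: in WT IR hearts Cdh5 came first with 21.7 CPM per kb and Vegfa second with 14.8. In the other table Nrp1 was highest both in Zeb2 WT IR hearts (17.4 CPM per kb) and in cTg-labelled hearts (13.8).

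**Figure D1:**
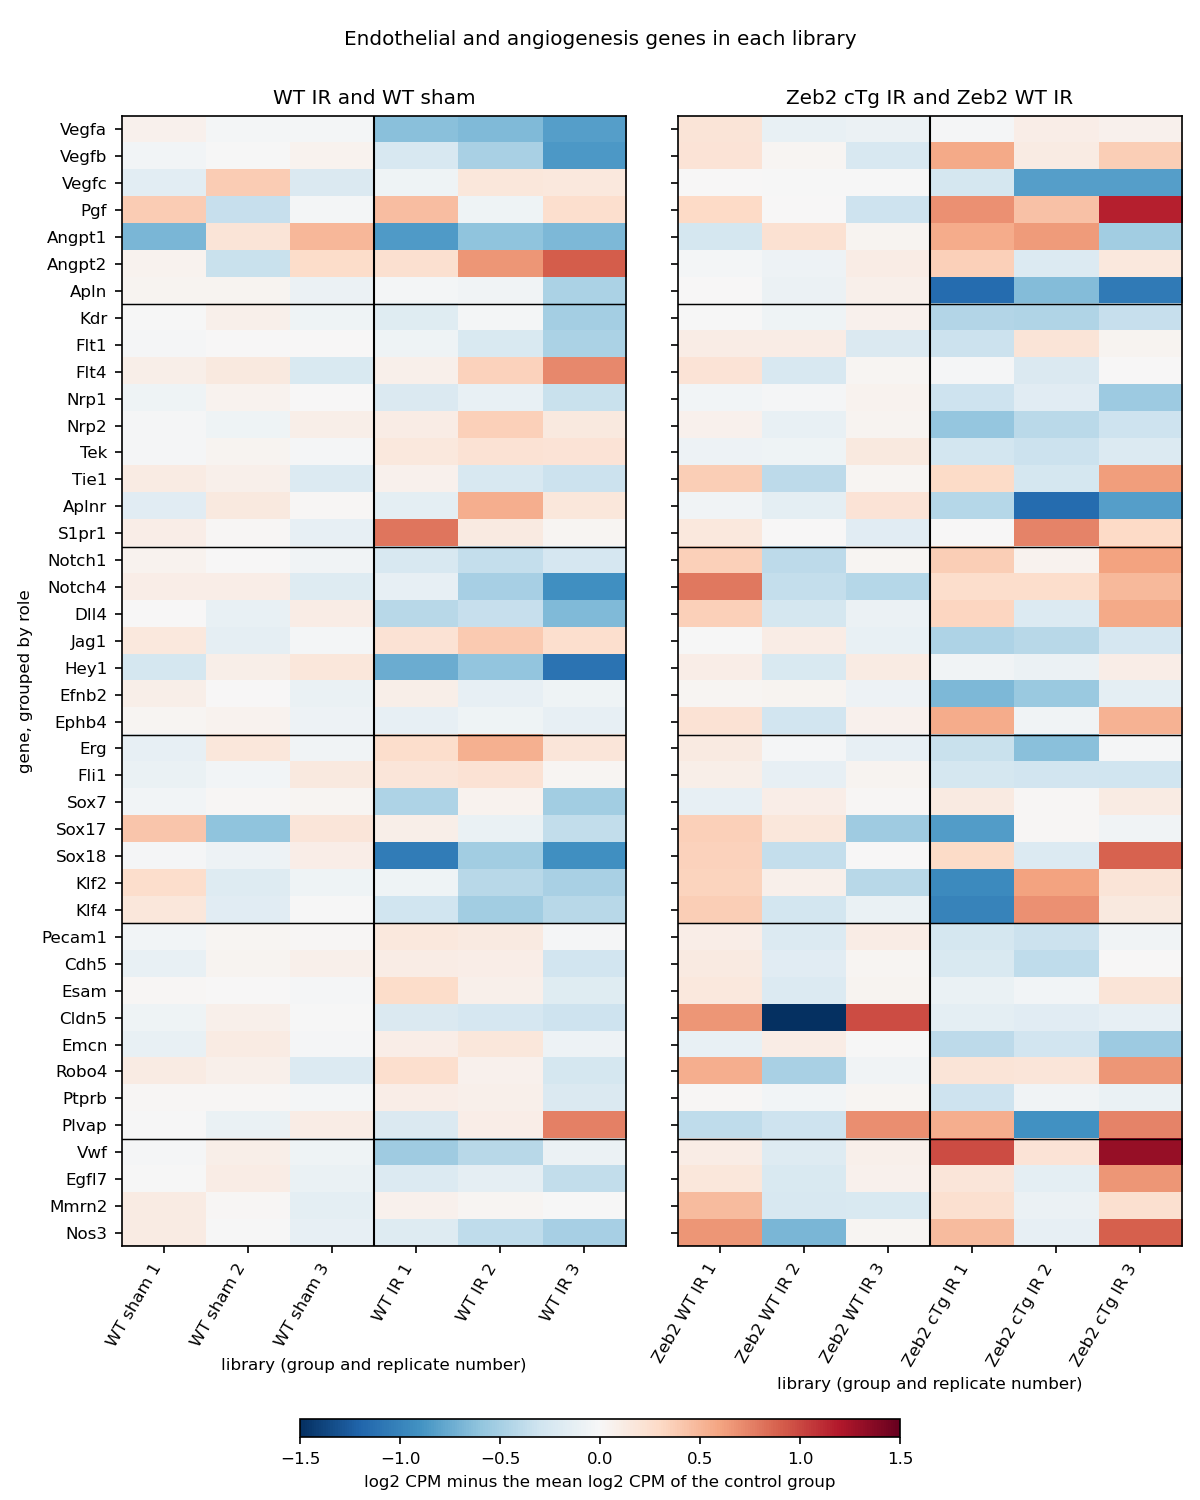
Each row is 1 of the 42 genes, grouped by role between the horizontal lines, and each column 1 library; colour gives log2 CPM minus the mean log2 CPM of the control group of that table, with blue lower and red higher. Vegfa, Vegfb, Dll4, Hey1 and Sox18 are blue in all 3 WT IR libraries, and Apln is blue in all 3 cTg-labelled libraries.

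The first comparison, WT IR against WT sham, asks how ischaemic injury alters cardiac gene expression. Of the 42 genes, 9 were lower in WT IR hearts (21.4%) and 0 were higher (edgeR quasi-likelihood test, adjusted p under 0.05 over 13756 genes), against 9.74% of all genes tested that were lower and 11.0% that were higher. The 9 genes were the ligands Vegfa, Vegfb and Angpt1, the Notch genes Notch1, Dll4 and Hey1, the transcription factors Sox18 and Klf4, and the nitric oxide synthase Nos3. The median log2 fold change was -0.13 over the 42 genes and 0.01 over all genes tested. At an unadjusted p under 0.05, 15 of the 42 were lower and 6 (Angpt2, Flt4, Nrp2, Tek, Jag1 and Erg) were higher, beside 17.4% and 18.8% of all genes. DESeq2 and limma-voom each called 8 lower and 0 higher. Over all genes DESeq2 called 8.60% lower and 9.49% higher, and limma-voom 10.003% and 9.85%. In 13 genes every WT IR library was below every WT sham library and in 4 (Nrp2, Tek, Jag1 and Erg) above, where 19.3% and 20.5% of all genes did so.

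The number of these genes that passed depended on single libraries, as did the number over all genes. Vegfa and Sox18 passed whichever library was left out. Beside them, Angpt1 and Hey1 were lower without WT sham replicate 1 (4 genes in all), no other gene without WT sham replicate 2 (2 genes) and Notch1 without WT sham replicate 3 (3 genes). Hey1 and Sox7 joined them without WT IR replicate 2 (4 genes), and Vegfb, Notch1, Hey1, Klf4 and Vwf without WT IR replicate 3 (7 genes). In these 5 fits 0 genes were higher. Leaving out WT IR replicate 1 gave 14 lower, among them all 9, and 7 higher (Angpt2, Flt4, Nrp2, Tek, Aplnr, Jag1 and Erg). That library was also the WT IR library with the lowest summed levels of fibroblast markers (1021 CPM, beside 1633 and 2492 in the others and 363 to 547 in WT sham) and of macrophage markers (167 CPM, beside 259.9 and 326, and 110.0 to 122 in WT sham).

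Vegfa, which encodes VEGF-A, the main growth factor for blood vessels, lies on chromosome 17 (GRCm38, 46016993 to 46032369, minus strand). Its level was 107, 100.4 and 101 CPM in the WT sham libraries and 66.6, 65.1 and 58.2 CPM in the WT IR libraries. All WT IR libraries lay below all WT sham libraries, with a gap several times the spread within either group. The mean fell from 103 ± 3.72 to 63.3 ± 4.47 CPM (SD, n = 3), a fall of 1.62-fold (log2 fold change -0.70, SE 0.08, adjusted p = 0.00230). Of the 42 genes, Vegfa had the smallest p in this comparison, and it passed under all 13 other settings of scaling, filter, test and correction, with log2 fold changes of -0.77 to -0.39 and adjusted p of at most 0.0155.

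Because Vegfa showed this fall, and Apln the clearest difference in the knock-in comparison, their promoters are shown, as the 250 bases before the RefSeq start site on the gene's own strand (GRCm38.p6). The letters searched were ACGTG (the core bound by hypoxia-inducible factors), CACCTG (an E-box bound by ZEB2) and CCGGAA (an ETS site), on both strands; capitals would mark a match, and neither window holds any of them. The Vegfa window is chr17:46032378-46032627 and the Apln window chrX:48034854-48035103, both upstream of the annotated gene on the minus strand.
Vegfa: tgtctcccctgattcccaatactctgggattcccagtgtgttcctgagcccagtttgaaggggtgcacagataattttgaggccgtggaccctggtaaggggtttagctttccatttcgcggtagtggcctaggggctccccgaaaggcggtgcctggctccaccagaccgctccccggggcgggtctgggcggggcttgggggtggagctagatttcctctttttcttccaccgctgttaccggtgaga
Apln: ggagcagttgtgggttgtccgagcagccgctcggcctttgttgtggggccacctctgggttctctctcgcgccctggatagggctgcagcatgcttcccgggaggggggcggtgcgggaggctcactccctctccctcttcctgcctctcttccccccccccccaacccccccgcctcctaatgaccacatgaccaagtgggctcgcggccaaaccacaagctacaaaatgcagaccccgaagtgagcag
RefSeq lists a further Vegfa start inside the gene, whose 250-base window (chr17:46025164-46025413) holds 1 match to ACGTG and 2 to CACCTG, but 218 of its bases are exonic and 67 of them coding, and the ACGTG match lies wholly in coding sequence. Over the 31 windows of the 25 genes that have one, ACGTG was found in 2, CACCTG in 6 and CCGGAA in 1, beside 16.6%, 17.2% and 12.03% of the 32851 windows of all genes. The single CCGGAA match was in the window of Kdr, and the ACGTG matches were in those of Klf4 and Vegfa. Among the genes without an entry were Angpt2 and Vwf, the genes with the smallest p among those higher in each comparison.

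Vegfb encodes a relative of VEGF-A that binds VEGFR1 (Flt1) and is rich in heart muscle. It measured 29.9, 30.7 and 31.9 CPM in WT sham and 26.0, 22.1 and 16.9 CPM in WT IR libraries. The groups did not overlap, but the WT IR libraries were spread more widely. The mean fell from 30.8 ± 1.01 to 21.7 ± 4.58 CPM (log2 fold change -0.50, SE 0.13, adjusted p = 0.0278). With the correction for GC content the change was -0.16 (adjusted p = 0.418, the highest over its 13 other settings, the lowest being 0.000671), and Vegfb had the highest GC content of the 42 genes (62.6%). The call was also lost with cardiomyocyte scaling (log2 fold change -0.21) and in the fit of all 12 libraries.

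Angpt1, the angiopoietin that activates TIE2 and keeps vessels quiescent, measured 19.0, 34.8 and 43.1 CPM in WT sham and 17.0, 20.02 and 19.2 CPM in WT IR libraries. Among the 9 genes it was the only one whose groups overlapped, because WT sham replicate 1 lay at the level of the WT IR libraries. The mean was 32.3 ± 12.3 against 18.7 ± 1.56 CPM (log2 fold change -0.78, SE 0.24, adjusted p = 0.0452), and the call was lost in limma-voom, in the fit of all 12 libraries, with cardiomyocyte scaling, and without WT sham replicates 2 or 3 or WT IR replicates 2 or 3 (adjusted p up to 0.154 without 1 library). Angpt1 shares exon bases with an antisense gene on the opposite strand, and since the strand setting of the counting is not given in the sources used here, some of its counts are uncertain; the same holds for Notch1, Dll4, Sox17, Nos3, Egfl7 and Ephb4.

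Angpt2, the angiopoietin that opposes Angpt1 at TIE2 and loosens vessels, measured 2.00, 1.53 and 2.33 CPM in WT sham and 2.28, 3.04 and 3.62 CPM in WT IR libraries. The groups overlapped slightly, and the difference did not pass (log2 fold change 0.63, SE 0.22, adjusted p = 0.0675). As a ratio within each library, which does not depend on scaling, Angpt2 over Angpt1 was 0.106, 0.0440 and 0.0540 in WT sham and 0.134, 0.152 and 0.189 in WT IR libraries. Every WT IR ratio was above every WT sham ratio.

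The other ligands did not pass. Vegfc, the lymphatic growth factor, measured 2.72, 3.96 and 2.62 CPM in WT sham and 2.91, 3.44 and 3.39 CPM in WT IR libraries, and Pgf, the placental growth factor, 1.63, 0.981 and 1.22 CPM and then 1.72, 1.19 and 1.49 CPM. Both overlapped between the groups. Apln measured 9.12, 9.08 and 8.32 CPM in WT sham and 8.62, 8.52 and 6.34 CPM in WT IR libraries (log2 fold change -0.17, SE 0.13, adjusted p = 0.358). Summed over the 7 ligands, the level was 171 to 191 CPM in WT sham and 109 to 125 CPM in WT IR libraries, most of it Vegfa.

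Of the 9 receptor genes 0 passed in edgeR, DESeq2 or limma-voom. At an unadjusted p under 0.05 in edgeR 3 were higher (Flt4, Nrp2 and Tek) and 2 lower (Flt1 and Nrp1), where 18.8% and 17.4% of all genes were. Kdr, the main signalling receptor for VEGF-A, measured 129.9, 137 and 124 CPM in WT sham and 115, 128 and 91.6 CPM in WT IR libraries (log2 fold change -0.23, SE 0.12, adjusted p = 0.198), with overlap. Flt1, whose product binds VEGF-A with high affinity and limits its action, measured 63.3, 64.3 and 64.4 CPM and then 61.0, 54.8 and 46.0 CPM. Its groups did not overlap, but the difference of -0.25 (SE 0.10) had an adjusted p of 0.113. Flt4, the receptor for VEGF-C, went the other way, from 10.7, 11.2 and 8.61 CPM to 10.7, 12.9 and 16.6 CPM (log2 fold change 0.38, SE 0.16, adjusted p = 0.120).

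The neuropilins, co-receptors for VEGFs and semaphorins, differed in direction. Nrp1 measured 158, 172 and 166 CPM in WT sham and 142, 153 and 132 CPM in WT IR libraries (log2 fold change -0.22, SE 0.09, adjusted p = 0.105). Nrp2 measured 36.0, 34.95 and 38.9 CPM and then 39.6, 46.9 and 40.6 CPM (log2 fold change 0.21, SE 0.09, adjusted p = 0.112). Neither pair of groups overlapped and neither change passed.

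Tek, which encodes TIE2, measured 35.1, 36.4 and 34.98 CPM in WT sham and 39.5, 41.2 and 41.0 CPM in WT IR libraries. The spread within each group was small and the groups were apart, yet the change was slight (log2 fold change 0.19, SE 0.07, adjusted p = 0.0703). Tie1, the orphan relative of TIE2, measured 36.7, 35.6 and 29.3 CPM and then 35.3, 28.6 and 27.0 CPM, with overlap. Aplnr measured 25.2, 31.3 and 28.7 CPM and then 25.5, 41.2 and 31.8 CPM, also with overlap. S1pr1, the receptor through which sphingosine-1-phosphate stabilizes junctions, had 1 high WT IR library (26.6, 24.99 and 22.8 CPM, then 43.3, 27.1 and 25.3 CPM; adjusted p = 0.182).

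To set the ligand beside its receptor, Vegfa was divided by Kdr within each library, which gave 0.825, 0.732 and 0.812 in WT sham and 0.578, 0.510 and 0.636 in WT IR libraries. The ratios did not overlap and do not depend on scaling. With 3 libraries a group, an exact permutation test of any single ratio cannot reach a p under 0.05, so no test is given.

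**Figure D2:**
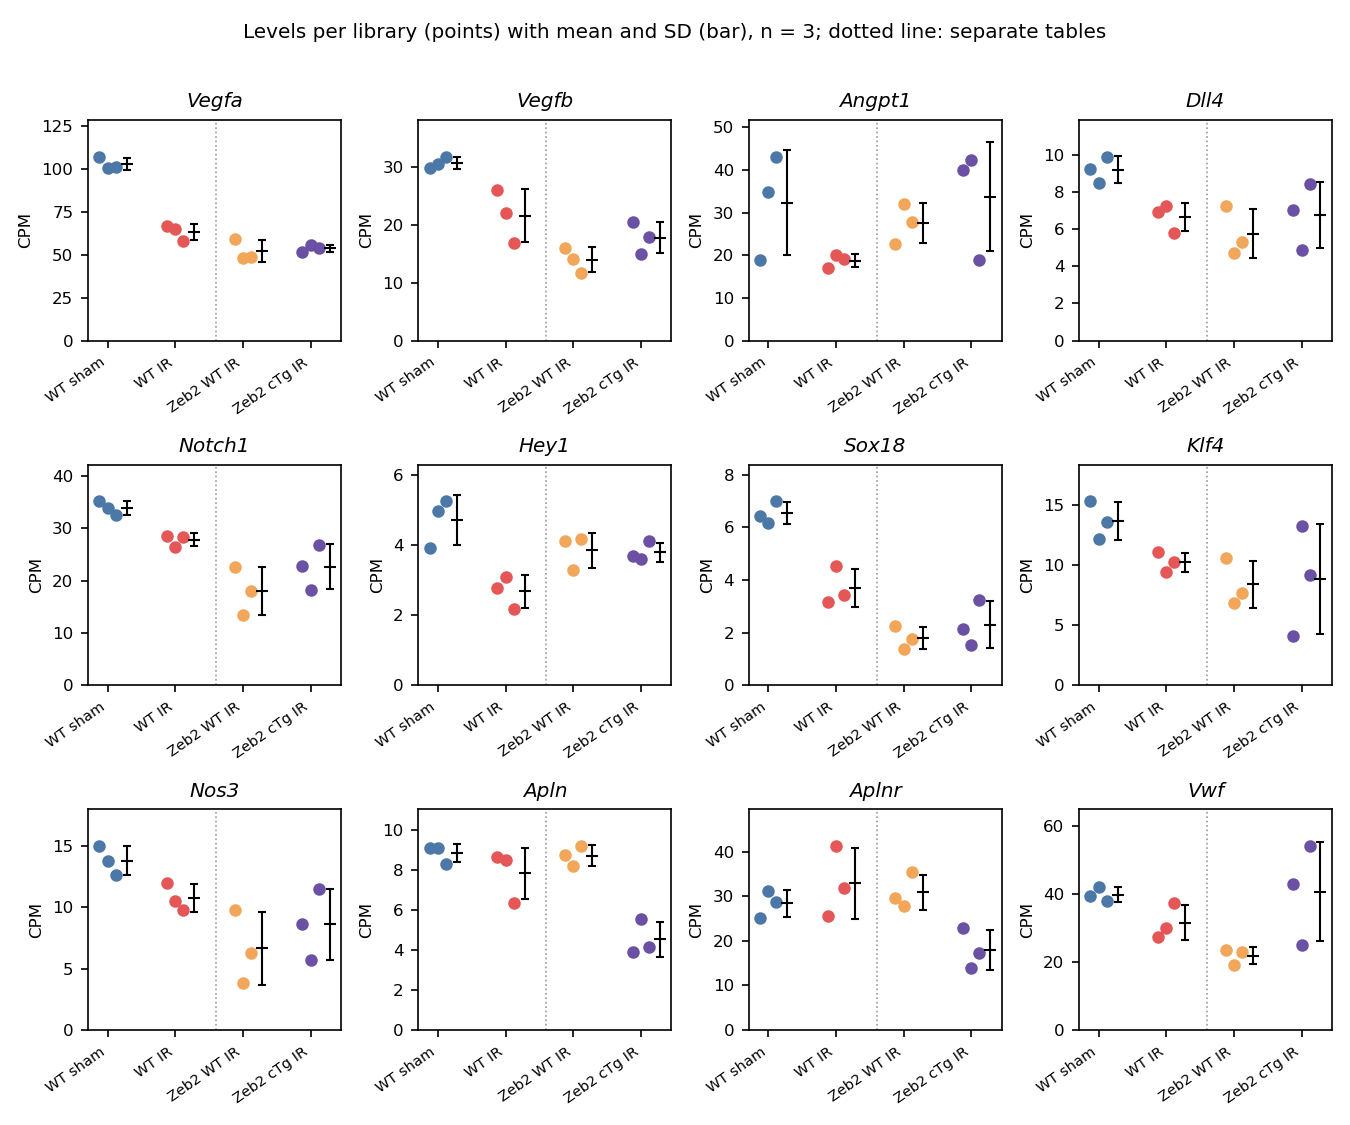
CPM in each library (points, in the order of replicates 1 to 3) with the mean and SD of each group of 3 (bar) for 12 of the 42 genes; the dotted line parts the separately scaled tables, and each axis starts at 0. Vegfa lies at 58.2 to 66.6 CPM in WT IR and at 100.4 to 107 CPM in WT sham libraries, and Apln at 3.90 to 5.53 CPM in cTg-labelled libraries and at 8.18 to 9.20 CPM in Zeb2 WT IR libraries.

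In Notch and ephrin signalling, 3 of 7 genes fell, beside 9.74% of all genes. Dll4, the Notch ligand of tip cells and arteries, measured 9.23, 8.46 and 9.89 CPM in WT sham and 6.91, 7.25 and 5.78 CPM in WT IR libraries (log2 fold change -0.46, SE 0.12, adjusted p = 0.0238). Its receptor gene Notch1 measured 35.1, 33.9 and 32.6 CPM and then 28.6, 26.4 and 28.4 CPM (log2 fold change -0.29, SE 0.07, adjusted p = 0.0234). Hey1, a transcriptional repressor that Notch switches on, measured 3.90, 4.97 and 5.24 CPM and then 2.78, 3.09 and 2.16 CPM (log2 fold change -0.79, SE 0.17, adjusted p = 0.0141). In all 3 genes the WT IR libraries lay below the WT sham libraries. Hey1 passed under 12 of 13 other settings, Dll4 under 9 and Notch1 under 8, and with cardiomyocyte scaling the sign of Notch1 turned (0.028).

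Notch4, a Notch receptor largely restricted to endothelium, was lower without passing (11.7, 11.8 and 9.55 CPM, then 10.03, 7.75 and 5.78 CPM; log2 fold change -0.49, SE 0.18, adjusted p = 0.0778). Jag1, a Notch ligand with a pro-sprouting role beside DLL4, lay higher in every WT IR library (10.3, 8.43 and 9.02 CPM, then 10.7, 12.1 and 11.0 CPM; log2 fold change 0.29, SE 0.10, adjusted p = 0.0800). The arterial ephrin gene Efnb2 and its venous receptor gene Ephb4 had log2 fold changes of -0.04 (SE 0.11) and -0.11 (SE 0.07), and neither passed.

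Among the transcription factors, 2 of 7 fell, again beside 9.74% of all genes. Sox18, needed for vascular and lymphatic development, measured 6.43, 6.16 and 6.98 CPM in WT sham and 3.16, 4.52 and 3.43 CPM in WT IR libraries. The lowest WT sham library was above the highest WT IR library by more than the range of either group, and the log2 fold change was -0.80 (SE 0.15, adjusted p = 0.00881). Klf4, a shear-responsive factor, measured 15.3, 12.2 and 13.6 CPM and then 11.1, 9.47 and 10.3 CPM (log2 fold change -0.42, SE 0.11, adjusted p = 0.0250).

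Klf2, which shear stress also induces, was not called (log2 fold change -0.32, SE 0.15, adjusted p = 0.155). The relatives of Sox18 did not pass either, with log2 fold changes of -0.27 for Sox7 (SE 0.15) and -0.14 for Sox17 (SE 0.25). Erg and Fli1, the ETS factors that maintain endothelial identity, had positive values of 0.33 (SE 0.12, adjusted p = 0.0867) and 0.15 (SE 0.09, adjusted p = 0.270). Erg measured 7.53, 9.20 and 7.92 CPM in WT sham and 9.84, 11.8 and 9.29 CPM in WT IR libraries, without overlap.

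Genes of endothelial junctions and surface differed little between WT sham and WT IR libraries, and 0 of 8 passed in edgeR, DESeq2 or limma-voom. At an unadjusted p under 0.05 in edgeR, 1 (Cldn5) was lower, beside 17.4% of all genes. Pecam1 (CD31) measured 63.2, 66.4 and 65.8 CPM in WT sham and 72.9, 71.3 and 64.1 CPM in WT IR libraries. Cdh5, the adherens-junction protein VE-cadherin, measured 85.0, 94.5 and 96.9 CPM and then 99.3, 99.0 and 75.5 CPM. Ptprb, the phosphatase that restrains TIE2, measured 136, 136 and 132 CPM and then 145, 142 and 115 CPM. The groups overlapped in all 3 genes, with log2 fold changes of 0.09 (SE 0.08), -0.01 (SE 0.11) and -0.01 (SE 0.10), and with cardiomyocyte scaling Pecam1 and Ptprb were called higher (0.40 and 0.30). Emcn, Esam and Robo4 had values of 0.06, 0.07 and 0.02. The tight-junction claudin Cldn5 was lower in every WT IR library (7.19, 7.91 and 7.45 CPM, then 6.44, 6.32 and 6.08 CPM) without passing (adjusted p = 0.0853). Plvap, the protein of fenestral diaphragms, had the fewest counts of the 8 and a wide error (log2 fold change 0.26, SE 0.25).

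Nos3, which makes the vasodilator nitric oxide in endothelium, measured 14.98, 13.7 and 12.6 CPM in WT sham and 11.999, 10.5 and 9.77 CPM in WT IR libraries (log2 fold change -0.36, SE 0.10, adjusted p = 0.0374). The groups were apart by less than 1 CPM, and the call was lost in DESeq2, under 5 of the other 12 settings and without any 1 library but WT IR replicate 1. Vwf, the clotting factor stored in endothelial granules, was lower without passing (39.4, 42.2 and 37.9 CPM, then 27.4, 29.9 and 37.4 CPM; log2 fold change -0.34, SE 0.11, adjusted p = 0.0592). Egfl7, a secreted vascular matrix protein, had a value of -0.24 (SE 0.09, adjusted p = 0.0841), and part of its exons is shared with another gene on the same strand (264 bases with Gm20532). Mmrn2, a matrix partner of CD93, had a value of 0.03 (SE 0.09).

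**Figure D3:**
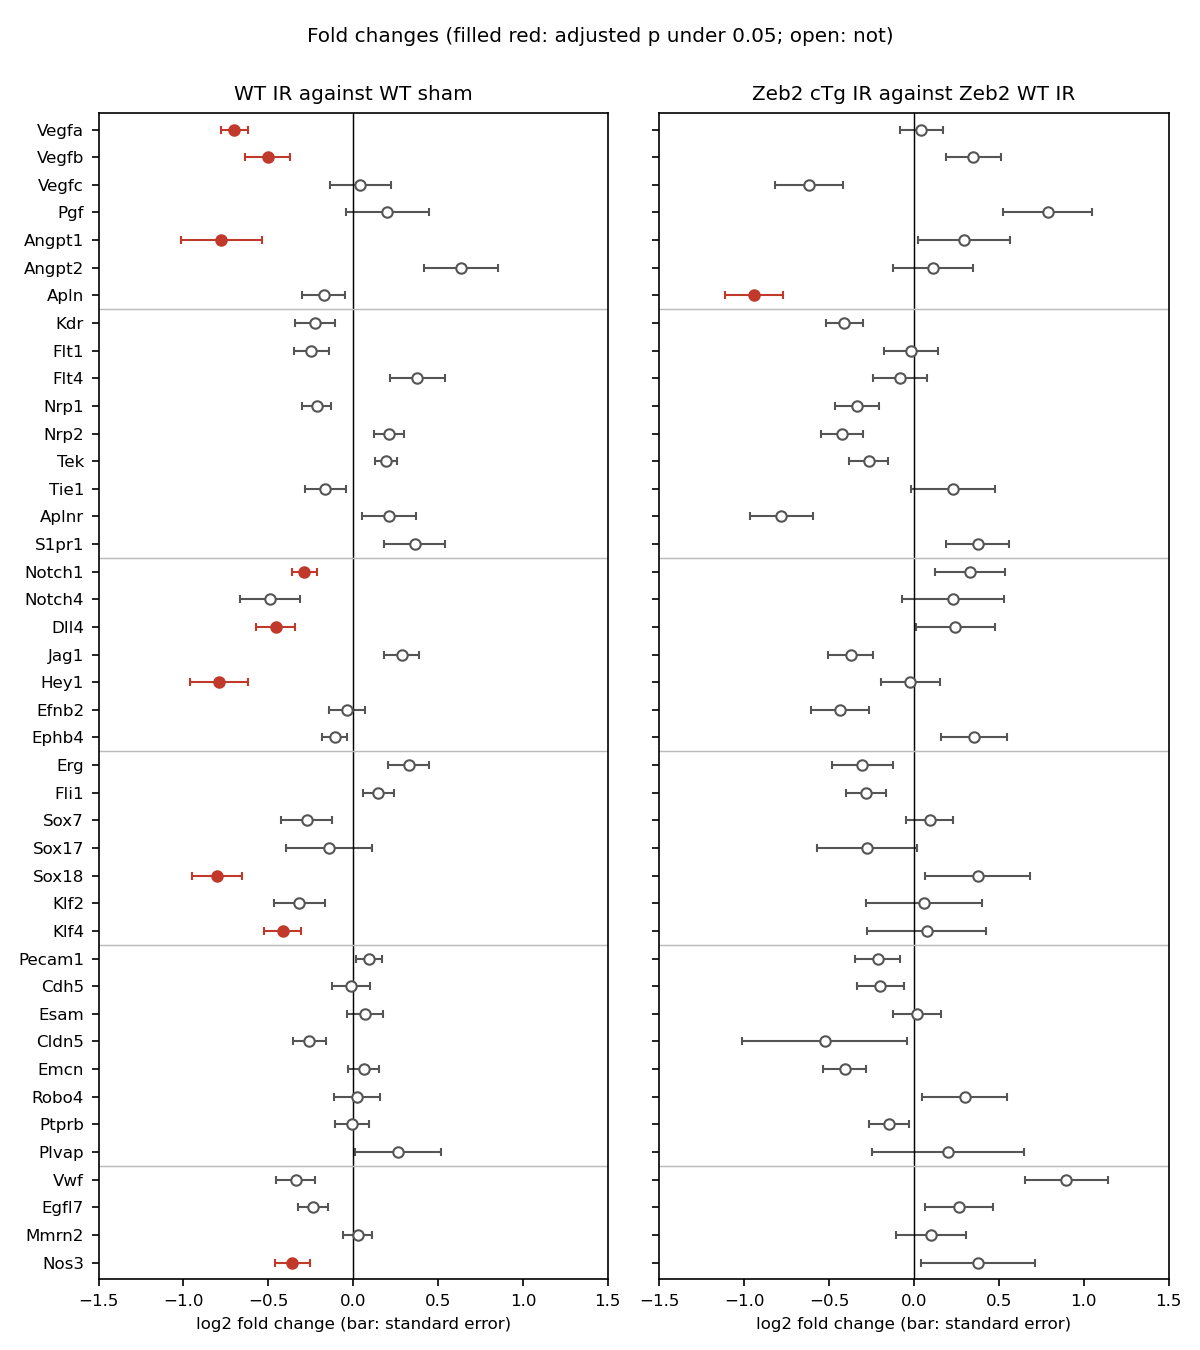
Log2 fold change of each of the 42 genes with its standard error (bar) in the comparison of WT IR with WT sham (left) and of cTg-labelled with Zeb2 WT IR libraries (right), with filled red points for adjusted p under 0.05 and grey lines between the roles. On the left 9 points are filled, all below 0, and on the right Apln alone.

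Scaling set where these genes lay relative to 0. With size factors from the 10 cardiomyocyte markers, whose summed level was 58766 to 64849.9 CPM in WT sham and 45449.9 to 58538 CPM in WT IR libraries, the median of all genes shifted to 0.32 and that of the 42 genes to 0.18. Vegfa was then the only 1 lower (log2 fold change -0.39), and 13 were higher: Angpt2, Flt4, Nrp2, Tek, S1pr1, Jag1, Erg, Fli1, Pecam1, Esam, Emcn, Ptprb and Mmrn2. Over all genes that scaling gave 3991 higher and 245 lower, beside 1519 and 1340 with TMM. Scaled to 18 other endothelial markers, the median of all genes was 0.05, and Vegfa, Vegfb, Angpt1, Hey1 and Sox18 were lower and 0 higher, with 1272 higher and 660 lower over all genes.

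Fold change and base composition moved together across the 42 genes. Spearman's rho between log2 fold change and GC content of the longest transcript was -0.39 over the 42 genes, which share their libraries, and it was -0.03 after a correction for GC content. The 9 genes that fell had a median GC content of 55.9% (39.3% to 62.6%) and the other 33 one of 51.1% (40.7% to 61.6%). With the correction 7 genes were lower, Vegfa, Angpt1, Nrp1, Dll4, Hey1, Sox18 and Klf4. Vegfb, Notch1 and Nos3 were thus lost and Nrp1 (log2 fold change -0.38) was gained. Over all genes 1184 were higher (8.61%) and 1588 lower (11.5%). The correction moved the median of all genes to -0.07, with that of the 42 genes at -0.11, so the 42 genes lay closer to all genes than without it.

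**Figure D4:**
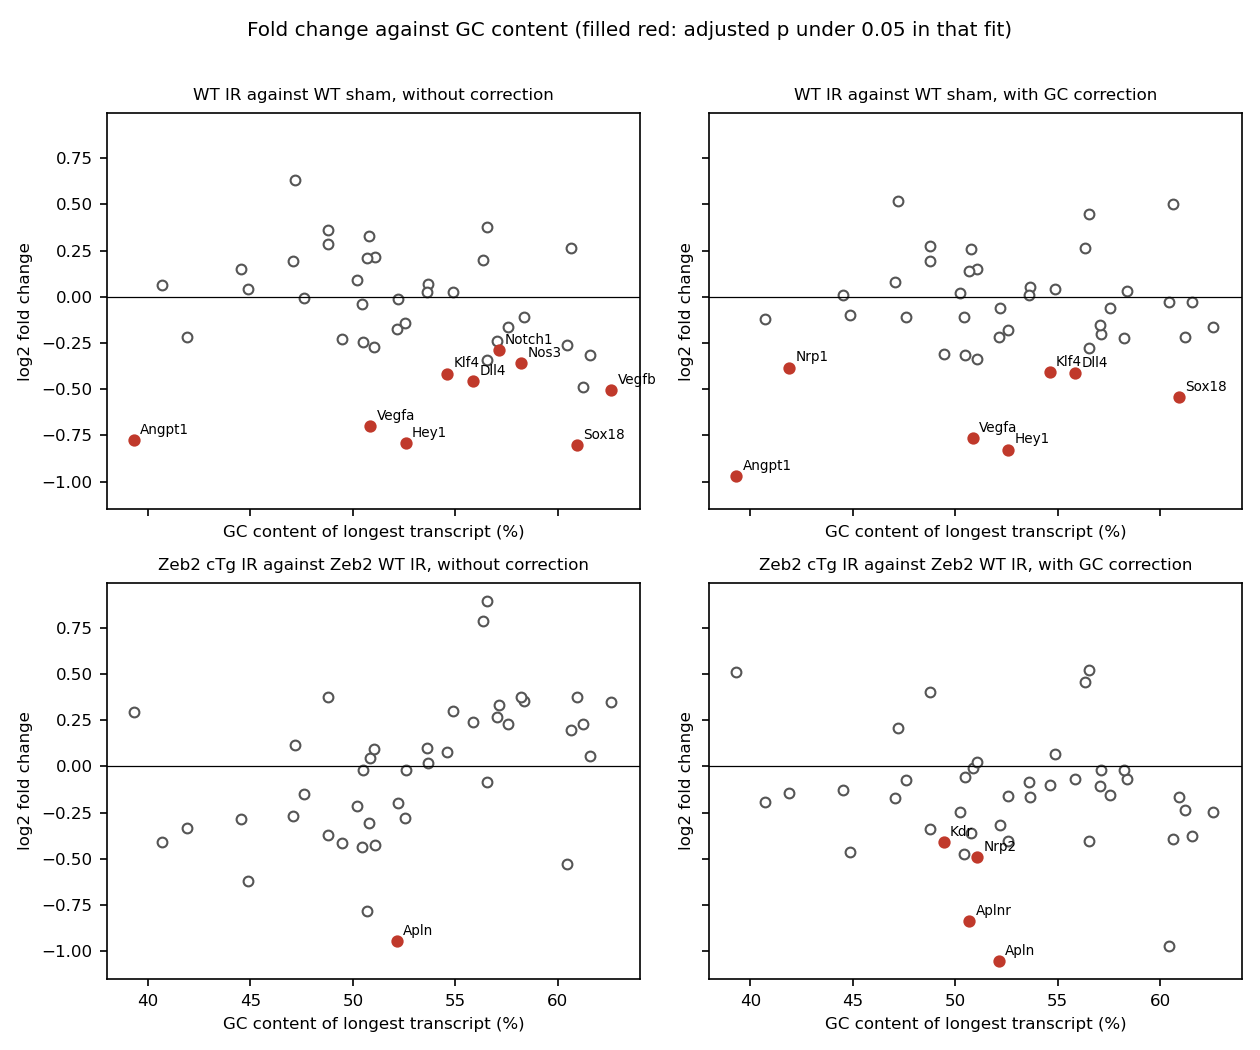
Log2 fold change (vertical) against GC content of the longest transcript in percent (horizontal) for the 42 genes, by comparison (rows) and without or with the correction for GC content (columns); filled red points passed in that fit and are named. Without the correction Spearman's rho is -0.39 in the upper row and 0.53 in the lower, and with it -0.03 and -0.04.

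Markers of vessel types outside the 42 genes gave a mixed picture in WT IR hearts. Of 18 other endothelial markers 1 was higher (Cd34, log2 fold change 0.86, adjusted p = 0.00419; fibroblasts express it too) and 2 lower (Eng, -0.38, and She, -0.27), and their summed level was 561 to 576 CPM in WT sham and 576 to 639 CPM in WT IR libraries. Of 10 capillary markers 2 were lower (Tcf15, -0.94, and Meox2, -0.34), factors that together govern fatty acid uptake by heart capillaries. The summed capillary level overlapped (1153 to 1214 CPM in WT sham, 1006 to 1302 CPM in WT IR).

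Of 5 arterial markers 1 was higher (Gja4, 0.67), while 3 had negative values that did not pass. Their median was -0.30, and the summed arterial level overlapped (22.2 to 25.5 CPM in WT sham, 22.9 to 23.9 CPM in WT IR). Of 4 tested venous and activated markers 2 were higher (Vcam1, an adhesion molecule for leukocytes, 1.15, and Nr2f2, the venous fate factor, 0.67), and 0 of these was lower. Of 5 lymphatic markers 3 were higher, Mmrn1 (1.58), Pdpn (1.40) and Reln (0.86), although their sum overlapped because Prox1, which cardiomyocytes also express, holds most of it (97.1 to 101 CPM in WT sham, 96.2 to 117 CPM in WT IR). Neither of the 2 endocardial markers passed.

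Of 45 further genes of vessel growth 9 were higher and 7 lower, beside 11.0% and 9.74% of all genes, with a median log2 fold change of 0.02. At an unadjusted p under 0.05 17 were higher and 10 lower, beside 18.8% and 17.4% of all genes. In 17 genes all WT IR libraries lay above all WT sham libraries and in 10 below, where 20.5% and 19.3% of all genes did so. The largest rises were in Ephb2 (2.20), an ephrin receptor, and in Thbs1 (1.96) and Thbs2 (1.91), the thrombospondins that inhibit vessel growth, and the lymphatic growth factor Vegfd rose by 1.68 on the log2 scale, from 0.678 ± 0.0393 to 2.22 ± 0.743 CPM. The largest falls were in Nrarp (-0.88), a Notch target that damps Notch signalling, Jag2 (-0.85), a Notch ligand, and Gata2 (-0.73), an endothelial transcription factor. Nrarp measured 5.72 ± 1.41 CPM in WT sham and 3.10 ± 0.267 CPM in WT IR hearts.

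Other cell types differed strongly between the same libraries. All 6 macrophage markers and 6 of 7 fibroblast markers were higher in WT IR hearts, led by the macrophage genes Lyz2, Adgre1 and Cd68 (log2 fold changes of 1.35, 1.10 and 1.00) and the matrix genes Postn, Lum and Col1a2 (3.49, 2.30 and 2.12), and 3 of 10 cardiomyocyte markers were lower (Ryr2, -0.58, Myl3, -0.56, and Tnni3, -0.52). Of 7 pericyte markers Pdgfrb was higher (0.48) and Notch3 lower (-0.47), and of 4 smooth muscle markers Tagln was higher (0.77) and Acta2 lower (-0.57). Their part in the values of the 42 genes was not tested.

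**Figure D5:**
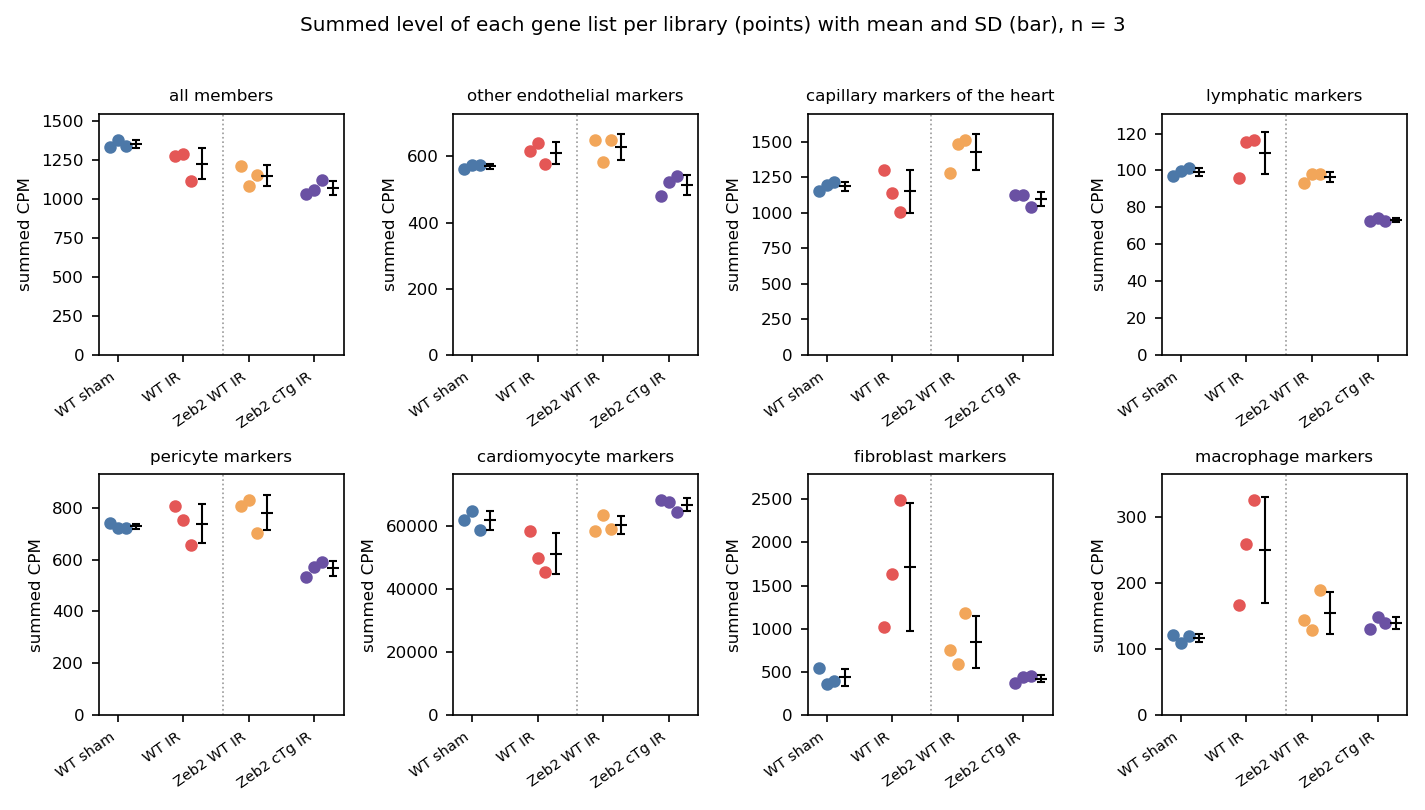
Summed CPM of the 42 genes (all members) and of 7 marker lists in each library (points, replicates 1 to 3) with the mean and SD of each group of 3 (bar); the dotted line parts the separately scaled tables and each axis starts at 0. Capillary, lymphatic and pericyte sums in all cTg-labelled libraries lie below those of all Zeb2 WT IR libraries, though single markers in each of these lists had positive log2 fold changes.

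The second comparison asks what a Zeb2 transgene in cardiomyocytes does to the injured heart. Zeb2 itself, examined first, measured 54.7, 57.8 and 67.0 CPM in Zeb2 WT IR libraries and 55.5, 56.9 and 58.7 CPM in cTg-labelled libraries. The groups overlapped and Zeb2 was not higher (log2 fold change -0.07, SE 0.12, adjusted p = 0.750), so these counts do not bear out the label. Whether transcripts of the transgene are counted under Zeb2 is not given in the sources used here, and each direction below refers to the cTg-labelled libraries. In the first comparison Zeb2 was higher in WT IR hearts (51.6 ± 3.73 against 71.5 ± 11.2 CPM, log2 fold change 0.47, adjusted p = 0.0219).

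Of the 42 genes 1 was lower in cTg-labelled libraries, Apln (2.38%), and 0 were higher, beside 1.51% lower and 2.14% higher of 13018 genes tested. The median log2 fold change of the 42 genes was 0.03 and that of all genes 0.01. At an unadjusted p under 0.05, 11 of the 42 were lower and 2 higher (Pgf and Vwf), where 10.1% and 14.0% of all genes were. DESeq2 called 3 lower (Apln, Kdr and Aplnr) and 1 higher (Vwf), and limma-voom 1 lower (Apln) and 0 higher. Over all genes DESeq2 called 3.26% lower and 5.15% higher, and limma-voom 1.25% and 1.77%. Groups did not overlap in 12 genes that were lower (28.6%) and in 2 that were higher (4.76%), beside 12.8% and 13.4% of all genes. These 12 were Vegfc, Apln, Kdr, Nrp1, Nrp2, Tek, Aplnr, Jag1, Efnb2, Fli1, Emcn and Ptprb.

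Apln lies on chromosome X (GRCm38, 48025146 to 48034853, minus strand). It measured 8.77, 8.18 and 9.20 CPM in Zeb2 WT IR libraries and 3.90, 5.53 and 4.16 CPM in cTg-labelled ones. The groups were far apart, and the mean was 1.92-fold lower (8.71 ± 0.512 against 4.53 ± 0.880 CPM, log2 fold change -0.94, SE 0.17, adjusted p = 0.0220). It passed under all 13 other settings, with log2 fold changes of -1.12 to -0.72 and adjusted p of at most 0.0245. With 1 library left out in turn the change was -1.12 to -0.86, and the call was lost without Zeb2 WT IR replicate 3 (adjusted p = 0.106), Zeb2 cTg IR replicate 1 (0.0802) or Zeb2 cTg IR replicate 3 (0.102). The number of the 42 genes that passed was 0 in either direction without Zeb2 WT IR replicate 3 or Zeb2 cTg IR replicate 3, 1 without Zeb2 cTg IR replicate 1 (Aplnr in place of Apln), and 6 lower (Apln, Kdr, Nrp1, Nrp2, Aplnr and Emcn) and 3 higher (Pgf, Ephb4 and Vwf) without Zeb2 cTg IR replicate 2. Over all genes, 0.361% were lower and 0.376% higher without Zeb2 WT IR replicate 3, and 0.349% and 0.539% without Zeb2 cTg IR replicate 3. The shares were 0.511% and 0.608% without Zeb2 cTg IR replicate 1, and 6.20% and 11.97% without Zeb2 cTg IR replicate 2.

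Aplnr, the receptor for apelin, measured 29.6, 27.9 and 35.3 CPM in Zeb2 WT IR libraries and 22.8, 13.8 and 17.4 CPM in cTg-labelled ones. The groups did not overlap, and the difference just missed the threshold (log2 fold change -0.78, SE 0.19, adjusted p = 0.0525). It passed under 8 of the 13 other settings, with adjusted p from 0.00271 to 0.0786. Apln over Aplnr within a library was 0.297, 0.293 and 0.260 and then 0.171, 0.401 and 0.239, so that the ratios overlapped.

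Several receptors of vessel growth lay lower without passing. Of the 9 receptor genes 5 had an unadjusted p under 0.05, all lower, where 10.1% of all genes were lower. DESeq2 called Kdr and Aplnr lower, beside 3.26% of all genes. Kdr measured 118, 113 and 124 CPM in Zeb2 WT IR libraries and 87.2, 86.8 and 93.3 CPM in cTg-labelled ones (log2 fold change -0.41, SE 0.11, adjusted p = 0.0674). Nrp2 measured 35.8, 31.8 and 35.3 CPM and then 22.9, 25.9 and 27.7 CPM (log2 fold change -0.43, SE 0.12, adjusted p = 0.0842). Nrp1 measured 166, 169 and 176 CPM and then 137, 151 and 117 CPM (log2 fold change -0.34, SE 0.13, adjusted p = 0.153). Each of these genes was apart between the groups, as was Tek (40.0, 40.4 and 46.8 CPM, then 34.99, 33.9 and 36.6 CPM; adjusted p = 0.199).

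Flt1, Flt4, Tie1 and S1pr1 overlapped. Flt1 measured 65.1, 65.04 and 52.0 CPM and then 48.3, 69.3 and 62.3 CPM, and Flt4 9.24, 6.80 and 8.20 CPM and then 7.92, 6.91 and 8.06 CPM. Tie1 measured 23.5, 13.8 and 18.5 CPM and then 22.1, 15.1 and 28.1 CPM, with a wide spread in both groups. S1pr1 measured 35.4, 31.8 and 28.2 CPM and then 31.7, 52.9 and 39.1 CPM, with Zeb2 cTg IR replicate 2 the highest (log2 fold change 0.37, SE 0.19, adjusted p = 0.251).

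None of the VEGF and angiopoietin ligands among the 42 genes was called here. Vegfa measured 59.4, 48.0 and 48.7 CPM in Zeb2 WT IR libraries and 51.3, 55.6 and 54.0 CPM in cTg-labelled ones (log2 fold change 0.04, SE 0.12, adjusted p = 0.855). Vegfb measured 16.1, 14.2 and 11.8 CPM and then 20.5, 15.1 and 17.9 CPM (log2 fold change 0.35, SE 0.16, adjusted p = 0.227). Both overlapped between the groups. Vegfa over Kdr was 0.502, 0.424 and 0.392 in Zeb2 WT IR libraries and 0.588, 0.641 and 0.579 in cTg-labelled ones, without overlap.

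Vegfc was nearly equal in the Zeb2 WT IR libraries (4.29, 4.25 and 4.26 CPM) and lower in the others (3.56, 2.405 and 2.41 CPM), with a log2 fold change of -0.62 (SE 0.20, adjusted p = 0.111). Pgf lay higher in every cTg-labelled library (1.98, 1.62 and 1.30 CPM, then 2.60, 2.18 and 3.62 CPM; log2 fold change 0.79, SE 0.26, adjusted p = 0.117). Angpt1 had 1 low library, Zeb2 cTg IR replicate 3 (22.6, 31.9 and 27.9 CPM, then 40.0, 42.3 and 19.0 CPM), and Angpt2 stayed between 1.34 and 1.97 CPM in all 6 libraries. None of these passed.

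Vwf had the largest positive value. It measured 23.5, 19.1 and 23.1 CPM in Zeb2 WT IR libraries and 42.9, 25.1 and 54.1 CPM in cTg-labelled ones. Even the lowest of the latter was above all of the former, but Zeb2 cTg IR replicate 2 was close to them, and the difference did not pass (log2 fold change 0.90, SE 0.24, adjusted p = 0.0724). Without that library Vwf, Pgf and Ephb4 were higher, beside 11.97% of all genes. With the correction for GC content the Vwf value was 0.52 (adjusted p = 0.0643, within a range of 0.00141 to 0.101 over its other settings). Vwf over Pecam1 was 0.350, 0.351 and 0.340 in Zeb2 WT IR libraries and 0.821, 0.501 and 0.891 in cTg-labelled ones.

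Of the Notch and ephrin genes 0 of 7 passed in edgeR, DESeq2 or limma-voom. At an unadjusted p under 0.05 in edgeR, where 10.1% of all genes were lower, 2 of the 7 were lower. Those were Jag1 (12.2, 13.3 and 11.3 CPM, then 8.88, 9.20 and 10.3 CPM) and Efnb2 (7.56, 7.61 and 6.996 CPM, then 4.61, 5.04 and 6.66 CPM), which lay lower in every cTg-labelled library, with log2 fold changes of -0.37 (adjusted p = 0.134) and -0.44 (adjusted p = 0.167). Notch1, Notch4, Dll4 and Ephb4 had positive values of 0.33, 0.23, 0.24 and 0.35 with overlapping groups, and Hey1 one of -0.02.

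Of the transcription factors 0 of 7 passed in edgeR, DESeq2 or limma-voom. At an unadjusted p under 0.05 in edgeR, where 10.1% of all genes were lower, 1 was lower, Fli1. It lay lower in every cTg-labelled library (18.4, 15.9 and 17.9 CPM, then 14.5, 14.2 and 14.2 CPM; log2 fold change -0.28, adjusted p = 0.188). Klf2 and Klf4 were low in Zeb2 cTg IR replicate 1 (4.02 and 4.11 CPM) and high in replicate 2 (11.9 and 13.2 CPM), and their standard errors of 0.34 and 0.35 were the largest among the 7 factors. Erg, Sox7, Sox17 and Sox18 had values of -0.30, 0.09, -0.28 and 0.37, all with overlap.

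Of the 8 junction and surface genes 0 passed in edgeR, DESeq2 or limma-voom. At an unadjusted p under 0.05 in edgeR, where 10.1% of all genes were lower, 1 was lower, Emcn. Emcn, the endomucin of capillaries and veins, came nearest to the threshold (24.8, 29.0 and 26.6 CPM, then 20.4, 21.8 and 18.3 CPM; log2 fold change -0.41, SE 0.13, adjusted p = 0.0971). Pecam1 and Cdh5 had values of -0.21 and -0.20 with overlapping groups, Ptprb one of -0.15, and Robo4, Esam and Plvap ones of 0.30, 0.02 and 0.20. Cldn5 was erratic in Zeb2 WT IR libraries (3.81, 0.769 and 4.76 CPM) and even in the others (2.18, 2.14 and 2.22 CPM), with a standard error of 0.49. Egfl7, Mmrn2 and Nos3 had values of 0.27, 0.10 and 0.38, and none passed.

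The other vessel lists held few calls. Of 18 other endothelial markers 1 was lower (Myct1, -0.64, adjusted p = 0.0447), of 5 arterial markers 1 (Hey2, -1.19, adjusted p = 0.0380), of 5 lymphatic markers 1 (Mmrn1, -0.89, adjusted p = 0.0231) and of 43 further vessel growth genes 1 (Vegfd, -1.51, adjusted p = 0.0135), with 0 higher in each. At an unadjusted p under 0.05, 12 of the 43 were lower and 0 higher, where 10.1% and 14.0% of all genes were. No capillary, venous or endocardial marker passed. Vegfd, a ligand of the receptor encoded by Flt4, measured 2.16 ± 0.169 CPM in Zeb2 WT IR hearts and 0.760 ± 0.107 CPM in cTg-labelled ones.

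Summed levels of vessel-cell markers were apart in some lists, in both directions, and not in others. Lower in cTg-labelled libraries were the following sums. The 18 other endothelial markers summed to 583 to 651 CPM in Zeb2 WT IR libraries and 479.9 to 539 CPM in cTg-labelled ones, the 10 capillary markers to 1283 to 1514 and 1041 to 1127 CPM, the 5 lymphatic markers, mostly Prox1, to 93.4 to 98.3 and 72.7 to 74.5 CPM, and the 7 pericyte markers to 704 to 830.2 and 535 to 593 CPM. The 2 endocardial markers were higher in sum (16.3 to 23.3 and 25.02 to 29.96 CPM), as were the smooth muscle markers (31.3 to 41.2 and 54.8 to 89.6 CPM), while the arterial (15.9 to 22.01 and 16.7 to 22.1 CPM) and venous and activated sums (22.3 to 23.3 and 19.9 to 23.6 CPM) overlapped. Of the pericyte markers Abcc9 was lower (-0.76), a potassium channel subunit that cardiomyocytes also express. Cardiomyocyte markers summed to 58398 to 63646 and 64590.5 to 68346 CPM, with Tnnt2 higher (0.68), fibroblast markers to 597 to 1187 and 376 to 453 CPM, with Col1a2 (-1.39) and Lum (-1.31) lower, and macrophage markers to 129 to 190.2 and 131 to 149 CPM, with 0 of 6 called. Of 3 tested smooth muscle markers Acta2 was higher (1.67), with a median of 0.20 and a lowest value of 0.02. A sum is weighted to its most abundant genes, and single markers differed in sign. Of the 10 cardiomyocyte markers 7 had positive and 3 negative values (-0.38 to 0.68, median 0.19). At an unadjusted p under 0.05 in edgeR, 2 of these 10 were higher and 1 lower, beside 14.0% and 10.1% of all genes. Positive log2 fold changes were found in 4 of 18 other endothelial, 3 of 10 capillary, 1 of 5 lymphatic and 2 of 7 pericyte markers. The medians of these lists were -0.26, -0.17, -0.70 and -0.10, and the highest pericyte value was 0.70.

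Scaled to the other endothelial markers, the median of all genes moved to 0.23 and that of the 42 genes to 0.26. Apln was still lower (log2 fold change -0.72), Vegfb, Pgf, S1pr1 and Vwf were higher, and the values of Kdr, Nrp2 and Emcn shrank to -0.19, -0.20 and -0.18. Over all genes that scaling gave 1991 higher and 180 lower, beside 278 and 196 with TMM. With cardiomyocyte scaling the median of all genes was -0.18, and Vegfc, Apln and Aplnr were lower and 0 higher, with 155 higher and 336 lower over all genes.

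Base composition moved with the fold changes here too, in the opposite sense: Spearman's rho between log2 fold change and GC content was 0.53 over the 42 genes, and -0.04 after the correction. With the correction Apln, Aplnr, Kdr and Nrp2 were lower (log2 fold changes of -1.05, -0.84, -0.41 and -0.49) and 0 were higher. Over all genes 2.76% were lower and 3.66% higher in that fit. The median of the 42 genes was then -0.16, beside 0.01 for all genes. The tables were scaled separately and share no library, and the levels of 1 are not set against those of the other.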

How the data were processed

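RNA of 12 left ventricular samples was sequenced, and the authors deposited 2 tables of raw counts per Ensembl gene, 1 per experiment. Per the submitters' processing notes, reads were aligned to mm10 with STAR 2.4.2a and counted with HTSeq 0.6.1. The sources differ on the library kit (mRNA or total RNA) and on the zone sampled, and the strand setting is not given in the sources used here.

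Each table was analysed on its own in R 4.3.3 with edgeR 4.0.16. Genes passed filterByExpr (minimum count 10, minimum total 15), libraries were scaled by TMM, and groups were compared by the quasi-likelihood test with Benjamini-Hochberg adjustment over all genes tested. A gene was called at an adjusted p under 0.05. Each p-value sets the difference between the groups against the spread among mice within both groups, estimated with information shared across genes. Standard errors are on the log2 scale, and ± denotes SD over 3 libraries. The fits were repeated with size factors by RLE, by the upper quartile, from 10 cardiomyocyte or from 18 endothelial markers, with other filters, without mitochondrial genes, in DESeq2 1.42.0, limma-voom (limma 3.58.1), with a replicate block, with a correction for GC content (loess, span 0.5), with all 12 libraries in 1 fit, and without each library in turn. The code was tested on simulated data. Symbols, positions, GC content and exon lengths are from GENCODE M21 (GRCm38), which named 36429 of 38293 rows, and promoters from RefSeq (GRCm38.p6). Within each table every library pair differed by more than sampling noise, by chi-square per gene. That measure grows with library depth, so pairs of unequal depth cannot be ranked by it. For Zeb2 cTg IR replicate 2 it was 21.8, 21.2 and 23.2 with the Zeb2 WT IR libraries and 25.4 and 26.8 with the other cTg-labelled ones. For WT IR replicate 1 it was 10.7 with WT sham replicate 1, and 11.5 and 24.7 with WT IR replicates 2 and 3. Whether libraries lay nearest to their own group was not tested.

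The 42 genes, the marker lists and the rules were chosen with earlier results of these data known. Genes named are the 42, Zeb2, and up to 3 genes per direction of each other list by log2 fold change among those called, and beside these Vegfd in the first comparison, Prox1, and Eng and Cd34 in the second, chosen after their values were seen. Where a list is given by its markers, Ccl21a was left out because its symbol matched 2 rows. Library depth and the counts behind 1 CPM are given with the results. Figures were drawn with matplotlib 3.10.9.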

Additional observations from a re-analysis of the deposited data

How the results depend on the processing

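In the comparison of WT IR with WT sham, 0 of the 42 genes were higher and 9 lower. The count was 0 and 9 with RLE or upper-quartile factors, with a minimum of 10 counts in every library and without mitochondrial genes, 0 and 8 in DESeq2 and limma-voom, and 0 and 7 with the GC correction. It moved to 13 higher and 1 lower with cardiomyocyte size factors, 0 and 5 with endothelial size factors, 3 and 11 without a filter, and 0 and 3 in the fit of all 12 libraries. Over all genes, 29.0% were higher and 1.78% lower with cardiomyocyte size factors, and 9.25% and 4.80% with endothelial ones. The shares were 8.60% and 7.13% without a filter, and 6.71% and 3.35% in the fit of all 12 libraries. With 1 library left out, 0 to 7 were higher and 2 to 14 lower, beside 1.64% to 18.4% and 1.41% to 17.6% of all genes. Over genes and settings together, 54 calls were lost and 34 gained. Among values called in either fit, signs turned for 2 genes, both with cardiomyocyte size factors: Notch1 (0.028, adjusted p = 0.857 in edgeR, 0.00756 to 0.276 under its other settings) and Ptprb (0.30, adjusted p = 0.0289, 0.455 to 0.998 under its other settings), and the cause was not tested. Genes called in neither fit turned sign too, with this scaling Apln, Kdr, Flt1, Nrp1 and Tie1 among them.

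For cTg-labelled against Zeb2 WT IR libraries, 0 were higher and 1 lower, the same with upper-quartile factors, the minimum of 10 counts, without mitochondrial genes and in limma-voom. It was 0 and 2 with RLE factors, 0 and 3 with cardiomyocyte and 4 and 1 with endothelial size factors, 1 and 2 without a filter, 1 and 3 in DESeq2, 0 and 4 with the GC correction, and 2 and 5 in the fit of all 12 libraries. With 1 library left out, 0 to 3 were higher and 0 to 6 lower, beside 0.376% to 11.97% and 0.349% to 6.20% of all genes. Over all genes, 278 were higher and 196 lower, beside 671 and 425 in DESeq2, 1029 and 524 without a filter and 1265 and 667 in the fit of all 12 libraries. Over the 42 genes and settings together, 38 calls were gained and 3 lost, and no sign turned in a value called in either fit, though genes called in neither turned sign, most often with the GC correction. The causes were not tested.

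The main fits did not treat libraries as paired by replicate number. Deviations of same-numbered libraries correlated at -0.03 to 0.01 in the first comparison and at -0.04 to 0.26 in the second. In the second, Zeb2 cTg IR replicates 1 and 2 correlated best with their own number (0.13 and 0.26) and replicate 3 did not (-0.04). In the first no WT IR library did. With 3 libraries a group these values cannot settle whether the numbers mark a shared batch. With the numbers as a replicate block, 0 were higher and 10 lower in the first comparison and 1 higher (Vwf) and 5 lower (Apln, Kdr, Nrp2, Aplnr and Emcn) in the second, and with the block and the GC correction together 0 and 5, and 0 and 4. Over all genes the block gave 1164 higher and 649 lower in the second comparison, beside 278 and 196 without it. In the first comparison it gave 1395 and 1200, beside 1519 and 1340. Depth limits the rarest of the 42 genes, whose smallest counts in a library were 21 in the first and 14 in the second table.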

Other observations

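Endoglin (Eng), a co-receptor for BMP9 on endothelium, was lower in WT IR than in WT sham hearts (30.3 ± 1.19 against 39.4 ± 3.63 CPM, SD, 3 libraries each; edgeR adjusted p = 0.0153). In the other table it measured 24.97 ± 6.75 CPM in cTg-labelled and 14.5 ± 3.70 CPM in Zeb2 WT IR hearts, with overlapping groups (log2 fold change 0.78, adjusted p = 0.0910). Cd34 measured 92.3 ± 15.3 CPM in Zeb2 WT IR and 66.5 ± 7.18 CPM in cTg-labelled hearts, without overlap and without passing (log2 fold change -0.47, adjusted p = 0.101).

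Vegfa over Vegfb within a library was 3.58, 3.27 and 3.17 in WT sham and 2.56, 2.95 and 3.45 in WT IR libraries, so that these ratios of the growth factor genes overlapped.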
